A study of Mus musculus with 6 samples.

Results

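Immediate early genes were examined as one group in irradiated mouse prostates that carried 0, 1 or 2 copies of the Trp53 R270H allele. The group was fixed by symbol and holds 10 genes, which are Fos, Fosb, Jun, Junb, Egr1, Atf3, Ier2, Ier3, Klf4 and Dusp1. All 10 were found among the 47719 genes listed for each mouse, each under 1 identifier, and all 10 passed the filter for the tests, an average FPKM of 1 or more, as did 13818 genes. FPKM is the number of sequenced fragments per kilobase of transcript, scaled to the size of the library. Not every gene of the group encodes a transcription factor, since Dusp1 is a phosphatase of MAP kinases and Ier3 a regulator of cell survival.

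RNA from 6 prostates was sequenced, with 2 mice for each genotype. Wildtype mice 39 and 41 were Trp53+/+, heterozygous mice 37 and 40 were Trp53R270H/+ and homozygous mice 47 and 49 were Trp53R270H/R270H, where the numbers are those of the animals. Every mouse was of the B6.129S4-Trp53tm3.1Tyj/J strain, was about 3 months old and was dissected 6 h after 5 Gy given to the whole body. Each library came from the prostate of 1 mouse, and the lobes taken are not given in the sources used here. No unirradiated prostate enters the comparisons, so a response to radiation itself cannot be read from these values. Each value describes bulk tissue, in which fewer cells of a type and less RNA per cell cannot be told apart.

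Immediate early genes are switched on within minutes of a stimulus and need no new protein synthesis for it. MAP kinases act on factors already bound at their promoters, such as serum response factor with its Elk partners, and CREB. The Fos and Jun proteins pair through leucine zippers to form AP-1, which binds DNA and drives a later wave of genes, while Dusp1 removes the phosphates from the MAP kinases and so closes the circuit. Their mRNAs are short-lived, and AU-rich elements in their 3′ untranslated regions promote this decay. In the prostate, AP-1 and Egr1 have been studied mostly in relation to growth signals and tumor progression.

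The group shares a compact gene structure. In GENCODE M21, the annotation of GRCm38 used here, the main coding transcripts of the 10 genes spanned a median of 3286.5 bases of the genome with 3 exons, against 21757 bases and 9 exons over 12649 tested coding genes. Fos lies on chromosome 12 from 85473890 to 85477273, Fosb on chromosome 7 from 19302696 to 19310051, Jun on chromosome 4 from 95049034 to 95052222 and Junb on chromosome 8 from 84974484 to 84978718. Jun, Junb and Ier2 have a single exon. Exons of the antisense gene Junos lie opposite those of Jun. The libraries were made with a stranded kit, but whether strand was used in counting is not given in the sources used here.

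Sequence before the transcription start was available in RefSeq on build GRCm38.p6 for 8 of the 10 genes. It was searched on both strands over 250 bases for TGACG, the first letters of the CREB site TGACGTCA, so that a full site also counts as a match to the shorter one. TGACG was found for 6 of the 8 genes (Fos, Fosb, Junb, Atf3, Klf4 and Dusp1) and in 17.8% of all 32851 promoters of that length. The full TGACGTCA was found for Dusp1 alone and in 1.55% of all promoters, and TATAAA for Fos alone and in 12.4%. A p53 half-site (the decamer consensus) was found for 0 of the 8 genes and in 7.13% of all promoters, and the CArG box bound by serum response factor for 0 of the 8 and in 1.47%. The AP-1 site TGANTCA was found for 0 of the 8 and in 6.75%. These counts cover the letters of this window only and say nothing about the factors. Stretches with TGACG are shown for 4 of the 6 genes that had it, 5′ to 3′ on the strand of the gene. Each ends before the first exon of the main coding transcript, with TGACG, TGACGTCA and TATAAA in capitals. The annotated gene of Dusp1 extends further upstream, to base 26562128 of its chromosome, so its stretch lies within that gene. They are Fos at chr12:85473740-85473889 (plus strand), Fosb at chr7:19310052-19310195, Junb at chr8:84978749-84978898 and Dusp1 at chr17:26508520-26508622 (minus strand for these 3).
Fos: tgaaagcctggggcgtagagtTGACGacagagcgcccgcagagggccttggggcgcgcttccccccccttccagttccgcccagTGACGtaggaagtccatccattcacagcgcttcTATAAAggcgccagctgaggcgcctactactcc
Fosb: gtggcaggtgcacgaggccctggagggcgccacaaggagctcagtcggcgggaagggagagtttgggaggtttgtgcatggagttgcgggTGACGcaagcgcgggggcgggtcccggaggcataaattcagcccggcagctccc
Junb: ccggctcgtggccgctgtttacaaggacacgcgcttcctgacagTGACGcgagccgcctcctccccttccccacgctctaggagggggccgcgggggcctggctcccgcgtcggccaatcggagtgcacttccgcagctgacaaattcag
Dusp1: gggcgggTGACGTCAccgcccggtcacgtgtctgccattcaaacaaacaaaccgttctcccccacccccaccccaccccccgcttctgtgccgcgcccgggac

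At the other end of the transcript, the pentamer ATTTA of AU-rich elements was counted in the annotated 3′ untranslated regions. Its median density was 2.89 per kilobase in the 10 genes and 1.16 per kilobase over 12471 tested genes. The longer TATTTAT was found in 6 of the 10 genes (60%) and in 26.7% of all. Ier3 had the highest density of the group, with 5 pentamers in 613 bases, followed by Dusp1 with 4 in 690 bases and Fos with 4 in 815 bases, while Ier2 had 0 in 755 bases. A stretch of 30 bases with the most pentamers (in capitals) is shown for Ier3, Dusp1, Fos and Jun, at chr17:35822485-35822514, chr17:26506156-26506185, chr12:85477101-85477130 and chr4:95049207-95049236 in the order printed.
Ier3: taattaatATTTAtgtATTTAtgtatatcc
Dusp1: gctggtccttATTTATTTAacacccccctc
Fos: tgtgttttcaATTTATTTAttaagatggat
Jun: atcATTTAtaatcataggaaagATTTAgta

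The depth of the libraries was estimated. What a single fragment adds to FPKM could be read from the lowest values of genes with 1 annotated transcript. It gave about 23500000 to 33600000 fragments per mouse, a rough estimate. Homozygous mouse 47 had the fewest and homozygous mouse 49 the most. As to the tissue, the prostate marker Pbsn (probasin) was detected in every mouse, but homozygous mouse 47 stood apart, with a Pbsn FPKM of 257 against 7329 to 11512 in the other 5 mice. Other luminal markers were not uniformly low there, since Tmprss2 was lowest in mouse 47 (37.5 against 72.0 to 152), whereas Krt8 (179) and Spink1 (34822) were second highest of the 6 mice. Seminal vesicle transcripts also differed between mice of a genotype. The summed FPKM of 6 such genes was 3479 in wildtype mouse 39 and 35131 to 56512 in the others, so that the sum in mouse 47 was within the range of the others. In that mouse, however, Svs2, Svs4 and Svs5 were listed at 0, while Svs3a (7321 against 7.79 to 324), Svs6 (26147 against 28.6 to 1021) and Pate4 (16862 against 125 to 4895) were the highest of all mice. Svs2 was also listed at 0 in mouse 49. The source of these zeros was not tested. The summed FPKM of 7 skeletal muscle genes was lower in both wildtype mice (1513 and 2230) than in the heterozygous (4196 and 4459) and homozygous ones (5189 and 4476). Of 10 p53 target genes, 10 were lower in homozygous than in wildtype mice (limma, adjusted threshold 0.05), as a check of the genotype labels. Part of that list was picked by the study on these samples, so its count is not independent evidence. The number that passed was 2 without mouse 39, 37 or 40, 1 without mouse 47, 7 without mouse 49 and 9 without mouse 41, while the mean was lower for 10 of 10 in each of these fits.

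Levels were compared between genes in FPKM, which is per length. Junb had the highest mean over the 6 mice, with an FPKM of 50.3, followed by Ier2 with 40.8, Jun with 27.7, Ier3 with 19.6, Dusp1 with 17.0, Egr1 with 13.8, Klf4 with 13.4, Atf3 with 10.8, Fos with 9.93 and Fosb with 1.25. Neighbors in this order had overlapping ranges over the mice, except Ier2 and Jun, and Fos and Fosb. Both Fos genes were thus at the bottom of the group and both Jun genes in its upper part.

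The Fos family, whose proteins bind DNA only when paired with a Jun protein, varied most. The FPKM of Fos was 5.74 and 19.8 in wildtype mice 39 and 41, 11.2 and 7.70 in heterozygous mice 37 and 40, and 3.93 and 11.2 in homozygous mice 47 and 49. The highest and the lowest wildtype value thus enclosed both heterozygous values, and the homozygous pair was 2.82-fold apart where the wildtype pair was 3.42-fold apart. For Fosb, the FPKM was 0.496 and 3.07 in wildtype, 1.06 and 0.759 in heterozygotes, and 0.269 and 1.82 in homozygotes in the same order. The 3 genotypes overlapped for both genes. Fosb in mouse 47 rested on about 24 fragments, with a counting error of 20.4%, and in mouse 41 on about 286, with a counting error of 5.91%, so its 11.4-fold range over the mice far exceeded counting error. These errors cover counting only. Fos rested on about 195 to 1031 fragments.

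The Jun family, which can form AP-1 with Fos proteins or among its own members, was steadier. The FPKM of Jun was 26.8 and 33.1 in wildtype, 32.0 and 26.6 in heterozygotes, and 20.9 and 26.6 in homozygotes. That of Junb was 43.1 and 66.5 in wildtype, 65.4 and 46.0 in heterozygotes, and 39.4 and 41.2 in homozygotes. Both homozygous values lay below both wildtype and both heterozygous values for Jun and for Junb. Over all tested genes, homozygous values lay below wildtype ones without overlap in 28.7% and below heterozygous ones in 24.1%. The share with both patterns was not counted. For Jun the margin was slight, with 26.64 in homozygous mouse 49 and 26.65 in heterozygous mouse 40.

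Egr1, a zinc finger factor at the end of the serum response pathway, had an FPKM of 12.2 and 21.9 in wildtype, 14.9 and 12.6 in heterozygotes, and 5.77 and 15.6 in homozygotes. The low value of mouse 47 stood alone, and mouse 49 lay above both heterozygous mice. Atf3, a stress-induced member of the ATF/CREB family, had 10.6 and 17.0 in wildtype, 11.5 and 8.42 in heterozygotes, and 9.56 and 7.72 in homozygotes, so that the homozygous values lay below the wildtype ones but not below the heterozygous ones. Klf4, a zinc finger factor of epithelial differentiation, had 10.9 and 16.3, 16.9 and 13.9, and 8.93 and 13.6 in the same order. Its homozygous values lay below the heterozygous values and overlapped with the wildtype ones.

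Among the remaining genes, Ier2, a small nuclear regulator, had an FPKM of 35.9 and 46.6 in wildtype, 48.3 and 38.9 in heterozygotes, and 39.5 and 35.6 in homozygotes, and all genotypes overlapped. Ier3 had 18.3 and 23.6 in wildtype, 21.96 and 20.6 in heterozygotes, and 16.5 and 16.9 in homozygotes. Its homozygous values lay below all other mice, the pattern of Jun and Junb. Only the separate shares over all tested genes are given above, and the share with both patterns was not counted. Dusp1 had 11.6 and 17.9 in wildtype, 20.6 and 19.9 in heterozygotes, and 13.8 and 18.1 in homozygotes. It was the only gene of the group with both heterozygous values above both wildtype values, a pattern seen in 19.2% of all tested genes.

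**Figure D1:**
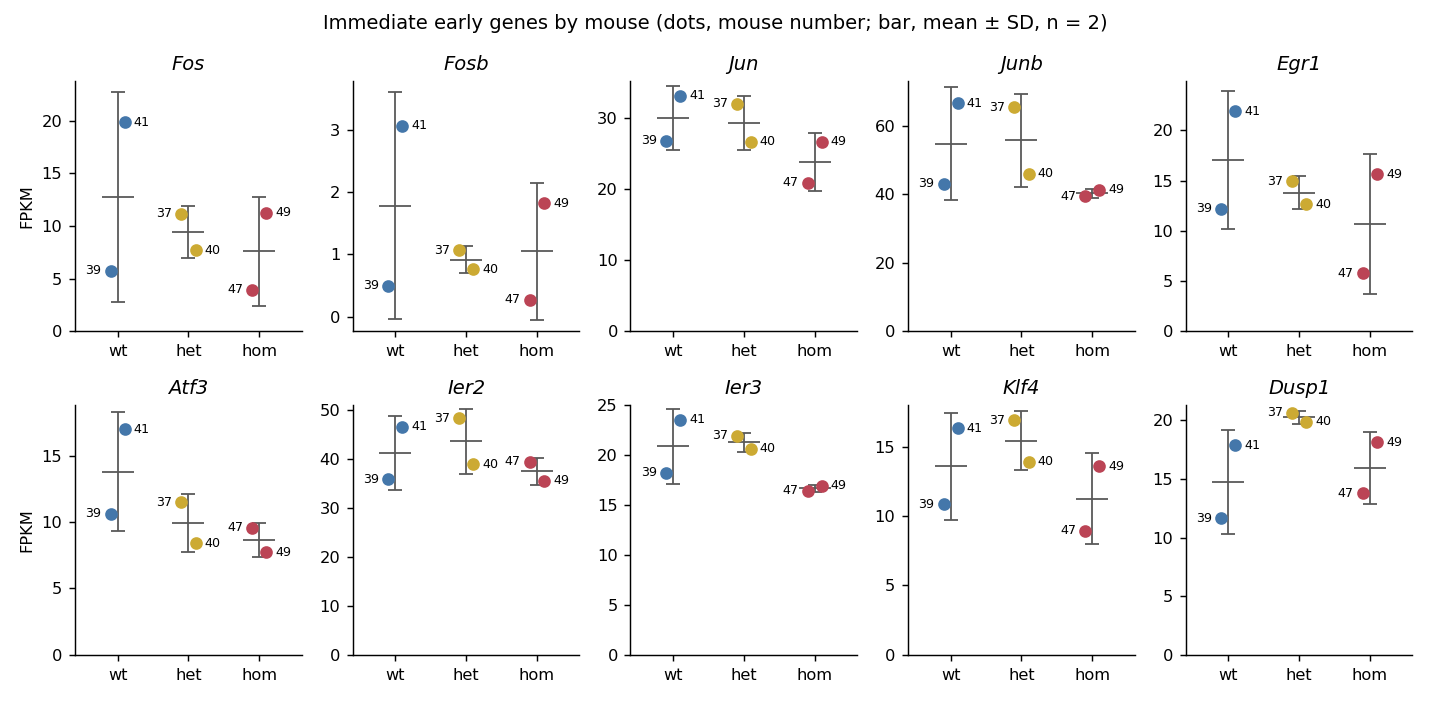
FPKM (linear axis) of the 10 immediate early genes in wildtype (wt), heterozygous (het) and homozygous (hom) mice, with 1 dot for each mouse and its number, a horizontal bar for the mean and error bars for the SD (n = 2). For Fos, Fosb and Egr1 the mice of the wildtype and of the homozygous group lie far apart, whereas both homozygous values of Jun, Junb and Ier3 lie below all others. Over all tested genes, homozygous values lay below wildtype ones in 28.7% and below heterozygous ones in 24.1%. The share with both patterns was not counted.

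The first question was whether expression differed with the R270H genotype. It was addressed with limma on log2(FPKM + 0.1), and 0 of the 10 genes had an adjusted p-value under 0.05 in any contrast or in the moderated F-test over the 3 genotypes. The unadjusted p-value was under 0.05 for 0 of the 10 genes as well. An F-test on single genes without moderation gave an adjusted p-value under 0.05 for 0 of all genes, so its 0 of the 10 carries no information on the group. In limma, the share of all tested genes that passed the adjusted threshold was 0.384% for homozygous against wildtype and 0.0145% for homozygous against heterozygous. It was 0% for heterozygous against wildtype and 0.101% in the moderated F-test. At the unadjusted threshold these shares were 18%, 6.39%, 6.87% and 11.5%. A criterion modelled on that of the study, a 1.5-fold change together with p under 0.05 before adjustment in the moderated F-test, was met by 0 of the 10 genes and by 8.31% of all. With an F-test without moderation, closer to the analysis of variance used in the study and tried after seeing the data, it was met by 0 of the 10 and by 4.38% of 13649 genes.

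Against wildtype, the mean was lower in homozygous mice for 9 of the 10 genes (55% of all tested genes), Dusp1 being the exception, and the median log2 difference of the group was -0.37 against -0.04 over all tested genes. Scaling bears on this count, as Ier2 turned to 0.01 under quantile normalization. The difference was at least 1.5-fold for 4 genes, Fos, Fosb, Egr1 and Atf3, where 7.6% of all tested genes were that much lower. None of the 10 was higher by as much, against 9.68% of all. Homozygous values lay below wildtype values without overlap for 4 of 10 genes, Jun, Junb, Atf3 and Ier3, a share to be set against 28.7% of all tested genes. The gene with the lowest p-value was Atf3, with a log2 difference of -0.64 (95% interval -1.32 to 0.04, adjusted p = 0.300 from limma), followed by Ier3 with -0.31 (95% interval -0.68 to 0.06, adjusted p = 0.340). For Egr1 the difference was -0.78 (95% interval -2.02 to 0.46, adjusted p = 0.459), and for Fos -0.68 (95% interval -2.43 to 1.08, adjusted p = 0.642). The interval of Fosb ran from -3.33 to 1.92 around -0.71, so neither a large fall nor a rise of the Fos genes could be told from no change.

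Single mice decided the size of this difference. Without wildtype mouse 41 the group median came to -0.10 and 5 of the 9 genes still tested had a lower mean in homozygous mice, and without homozygous mouse 47 it came to -0.11 with 6 of 10. Without wildtype mouse 39 it was -0.64 with 10 of 10 genes lower, and Junb, Atf3 and Ier3 then had an unadjusted p-value under 0.05 (adjusted p = 0.337, 0.310 and 0.311 from limma). Without homozygous mouse 49 it was -0.50, and Egr1 alone had an unadjusted p-value under 0.05, with a log2 difference of -1.49 (adjusted p = 0.145 from limma).

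Between heterozygous and wildtype mice the genes were evenly divided. The mean was lower in heterozygous mice for 5 genes (Fos, Fosb, Jun, Egr1 and Atf3) and higher for the other 5, with a median log2 difference of 0.00 for the group, while 52.8% of all tested genes were lower. Between means of log2(FPKM + 0.1), a difference of 1.5-fold or more was reached by 0 of the 10 genes. Over all tested genes, 2.28% reached it downward and 6.97% upward. The mean FPKM of Fosb was 1.78 in wildtype and 0.912 in heterozygous mice, further apart than on that scale. The wildtype mice are the same as in the comparison above. Single mice turned this division, as 9 of 10 genes were lower without wildtype mouse 39 (median -0.23), 8 of 10 without heterozygous mouse 37 (median -0.19), 3 of 10 without heterozygous mouse 40 (median 0.09) and 1 of 9 without wildtype mouse 41 (median 0.27). The largest positive difference was that of Dusp1, with 0.49 (95% interval -0.10 to 1.08, adjusted p = 0.833 from limma), and the largest negative ones were those of Fosb with -0.46 and Atf3 with -0.44. For Ier2 and Ier3, the most stable genes, the intervals ran from -0.36 to 0.53 and from -0.33 to 0.41.

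Homozygous mice were also compared with heterozygous mice. All 10 genes had a lower mean in homozygous mice (54.2% of all tested genes), with a median log2 difference of -0.35 against -0.03 over all. None differed by 1.5-fold or more, against 5.54% of all tested genes downward and 3.31% upward. For Fosb the mean FPKM itself was higher in homozygous mice (1.05 against 0.912), and its log2 difference turned to 0.64 under quantile normalization. In 5 genes, Jun, Junb, Ier3, Klf4 and Dusp1, the homozygous values lay below the heterozygous ones without overlap, as they did in 24.1% of all tested genes. The lowest p-value was that of Ier3, with a log2 difference of -0.35 (95% interval -0.72 to 0.02, adjusted p = 0.707 from limma). This comparison shares the homozygous mice with the one against wildtype, so the low values of mouse 47 enter both. Without mouse 47, 7 of 10 genes were lower and the median was -0.17, and without heterozygous mouse 37, 9 of 10 were lower with a median of -0.20.

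A dosage pattern would place the wildtype, heterozygous and homozygous values in the order of the number of R270H alleles in every mouse. Of the 10 genes, 0 were ordered in this way, falling or rising, as against 8.83% of all tested genes (4.98% falling). Junb, Ier2, Ier3, Klf4 and Dusp1 had their highest mean in heterozygous mice. Jun, Junb and Ier3 became ordered, all falling, once wildtype mouse 39 was left out, and Jun once heterozygous mouse 37 was. With fewer values to follow the order, 17.3% and 21.6% of all tested genes were then ordered.

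**Figure D2:**
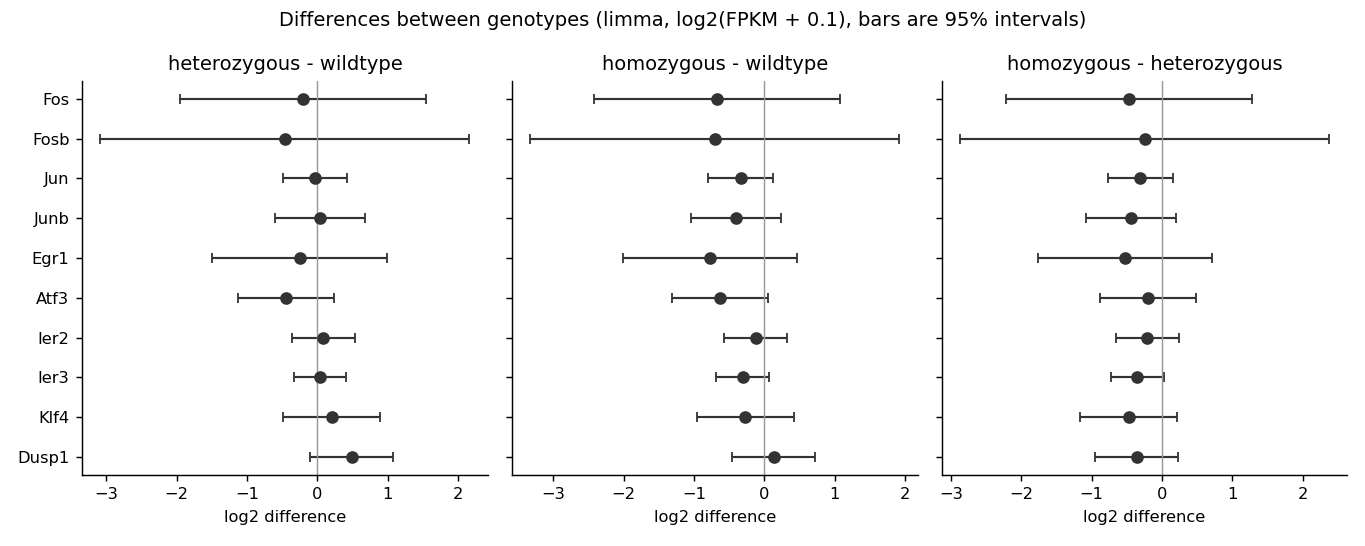
Differences between genotypes on the log2(FPKM + 0.1) scale for the 10 immediate early genes, with the limma estimate as a dot and its 95% interval as a bar. Every interval includes 0, and those of Fos, Fosb and Egr1 are the widest.

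The second question was how far mice of the same genotype differed. Between the 2 wildtype mice, the absolute log2 difference had a median of 0.62 over the 10 genes and of 0.21 over all tested genes, and all 10 genes exceeded the latter. For the heterozygous pair the medians were 0.29 and 0.19 with 8 genes above, and for the homozygous pair 0.37 and 0.22 with 7 above. The spread exceeded 2-fold for Fos and Fosb in wildtype mice, where 6.3% of all tested genes did so, and for Fos, Fosb and Egr1 in homozygous mice, where 6.52% did.

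Fosb had the widest spread, with log2 differences of 2.41 between the wildtype and 2.38 between the homozygous mice, larger than those of 98.8% and 98.2% of all tested genes. Fos followed with 1.77 and 1.49, and the difference of Egr1 was 1.42 between the homozygous mice. Ier3 and Junb lay at the other extreme in homozygous mice, with 0.04 and 0.07. The change against wildtype was larger than the pooled SD between mice of a genotype for 5 of the 10 genes in homozygous mice (Jun, Junb, Egr1, Atf3 and Ier3), against 59.4% of all tested genes, and for 2 in heterozygous mice (Atf3 and Dusp1), against 42%.

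**Figure D3:**
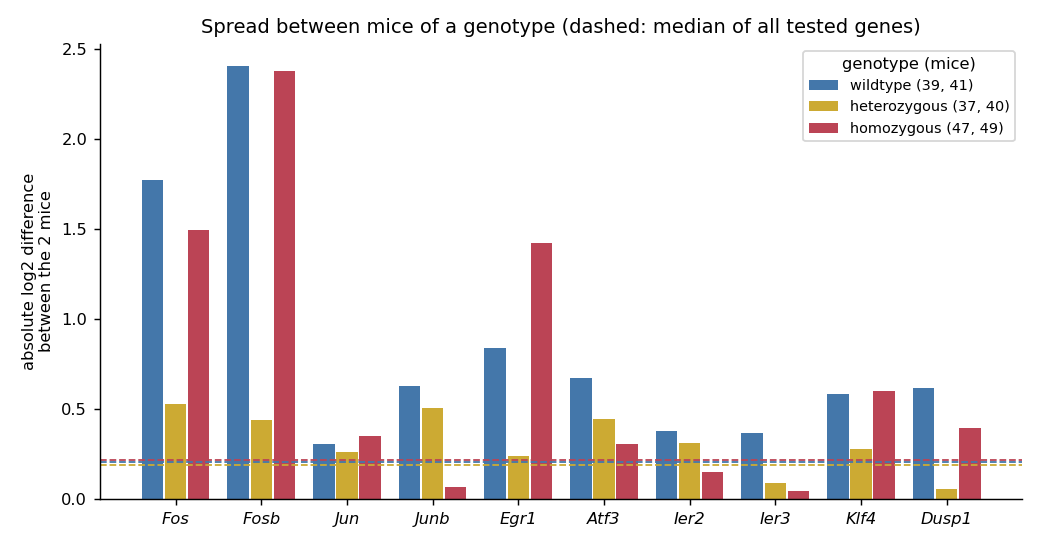
Absolute log2 difference between the 2 mice of each genotype for the 10 immediate early genes (bars), with the median of all tested genes for each genotype as a dashed line at 0.21, 0.19 and 0.22. The bars of Fos and Fosb are the tallest in wildtype and homozygous mice, while no bar of the heterozygous pair reaches 1.

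The differences between mice ran in one direction for most of the group. Wildtype mouse 41 was above mouse 39 in all 10 genes (57% of all tested genes were higher in mouse 41), and heterozygous mouse 37 above mouse 40 in all 10 (46.6% of all tested genes were higher in mouse 40). Homozygous mouse 49 was above mouse 47 in 8 of 10 (49.8% of all), the exceptions being Atf3 and Ier2. Mouse 41 held the highest value of all 6 mice in 7 genes and mouse 37 in 3 (Ier2, Klf4 and Dusp1), whereas these mice were highest in 20.7% and 17.3% of all tested genes. Mouse 47 held the lowest value in 7 genes and in 25.5% of all. The lowest value was in mouse 49 for Atf3 and Ier2 and in mouse 39 for Dusp1. Genes of a shared pathway are not independent of each other, so these counts describe the 6 mice.

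Centred on each gene's own mean, the group averaged -0.27 and 0.58 in wildtype mice 39 and 41 on the log2 scale. The averages of heterozygous mice 37 and 40 were 0.26 and -0.06, and those of homozygous mice 47 and 49 were -0.57 and 0.06. The difference between the 2 wildtype mice was thus larger than any difference between genotype means of the group. Mouse 47 also had the lowest summed FPKM of 5 macrophage markers, 52.0 against 80.8 to 126. Its sum of 5 fibroblast markers, 293, was the lowest as well, against 395 to 672 in the others. Among the latter markers, Col1a1 was lower in mouse 39 (38.4) than in mouse 47 (40.4). Mouse 39 had the lowest endothelial sum, 24.5 against 30.1 to 41.9 for 5 genes, and the lowest erythroid sum, 349 against 475 to 955 for 4 genes. The summed FPKM of 4 basal epithelial markers was 186 in mouse 41 against 124 to 135, mostly through Krt15, while Krt14 was highest in mouse 47 and Trp63 in mouse 49. No marker of these 5 lists was at 0 in any mouse. Their part in the spread of the immediate early genes was not tested.

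**Figure D4:**
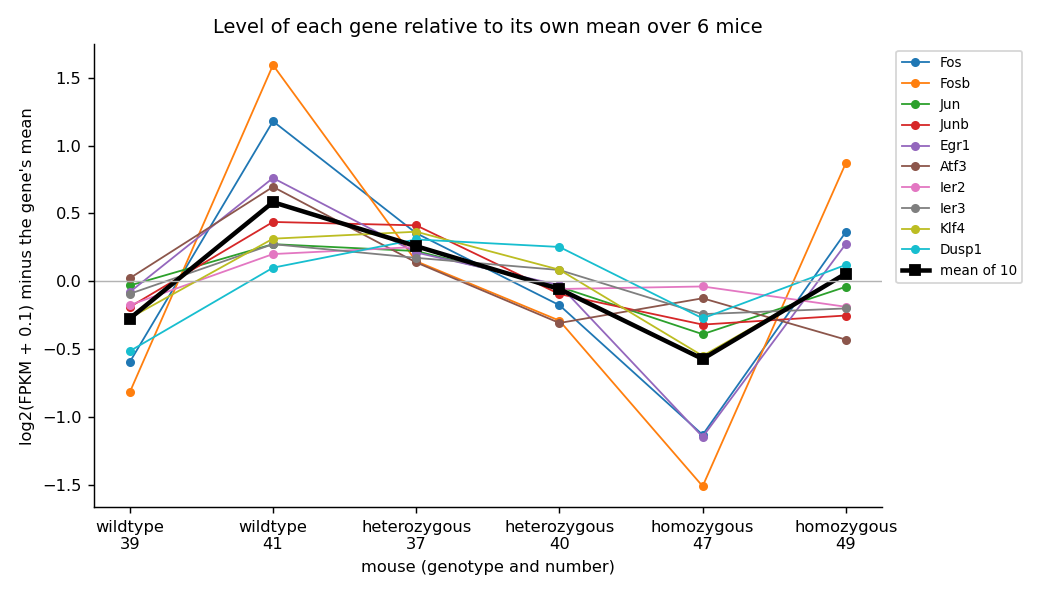
Level of each of the 10 genes in each mouse as log2(FPKM + 0.1) minus the gene's mean over the 6 mice, with the mean of the 10 genes in black (lines only join the values of a gene). The mean of the group peaks at 0.58 in wildtype mouse 41 and is lowest at -0.57 in homozygous mouse 47.

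The genes most like the group were sought by the root mean square distance between their centred log2 profile over the 6 mice and the mean profile of the group. Apart from predicted genes, the 5 nearest were Gar1, a component of box H/ACA ribonucleoproteins, at 0.0627, Ptgs1, the constitutive cyclooxygenase, at 0.0738, the transcription factor Tfap2c at 0.0746, the LIM domain gene Csrp2 at 0.0847 and Swap70 at 0.0994. The FPKM of Gar1 was 19.4 and 32.4 in wildtype, 28.4 and 21.9 in heterozygotes, and 16.7 and 23.5 in homozygotes. With so many genes and 6 mice, some near profile is always found. The nearest member of the group itself was Klf4 at 0.132 and the farthest Fosb at 0.698, since its swings were larger than the mean.

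The wider circuit was examined through lists of related genes. Of 45 other immediate early genes, 40 were tested, and 0 had an adjusted p-value under 0.05 in limma's contrasts against wildtype. At the unadjusted threshold, 4 were higher and 4 lower in homozygous mice, and 3 were higher and 3 lower in heterozygous mice. These are 20% and 15% of the list, where 18% and 6.87% of all tested genes passed, so the share for homozygous mice was near the background. The median log2 difference in homozygous mice was 0.06, unlike that of the 10 genes above.

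The lower genes were Btg1, Btg2 and Plk2 in both comparisons and Cyr61 in homozygous mice. Btg2 and Plk2, known p53 target genes that restrain the cell cycle, had an FPKM of 82.7 and 53.9 (Btg2) in wildtype, 40.3 and 39.8 in heterozygotes, and 36.2 and 32.7 in homozygotes, and of 14.7 and 9.34 (Plk2), 6.74 and 8.15, and 5.78 and 5.47 in the same order. Both were ordered by the number of R270H alleles without overlap, with log2 differences of -0.96 and -1.04 in homozygous mice (adjusted p = 0.146 and 0.150 from limma). Btg1, an antiproliferative gene of the same family as Btg2, followed the same order with -0.85 (adjusted p = 0.110 from limma). Of the 40 tested genes of this list, 7 were ordered, against 8.83% of all tested genes. Irf1 and Mcl1 were the others that fell, and Ptgs2 and Pim1 were ordered as rising.

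The higher genes in homozygous mice were Ptgs2, Nr4a3, Bhlhe40 and Pim1. Ptgs2, the inducible cyclooxygenase, had an FPKM of 0.632 and 7.62 in wildtype, 10.7 and 11.2 in heterozygotes, and 49.4 and 23.2 in homozygotes. Between the last and the first group its log2 difference was 3.84 (adjusted p = 0.185 from limma). Its wildtype mice differed more than 10 times from each other, and its highest value was in mouse 47, where Fos, Fosb and Egr1 were lowest. Nr4a3, an orphan nuclear receptor, had 1.33 and 4.92, 3.86 and 4.55, and 15.7 and 9.66 in the same order, with a log2 difference of 2.22 (adjusted p = 0.180 from limma). In heterozygous mice, Gadd45b, Klf2 and Pim1 were higher at the unadjusted threshold, Gadd45b with 7.72 and 7.13 in wildtype and 13.2 and 10.7 in heterozygous mice (log2 difference 0.67, adjusted p = 0.343 from limma).

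Of 23 other genes of the AP-1, ATF, CREB and Maf families, 19 were tested and 0 passed the adjusted threshold. Jund, Atf6b and Mafk were lower in homozygous mice at the unadjusted threshold, which is 15.8% of the list and below the 18% of all tested genes that passed. The FPKM of Jund, the constitutively expressed Jun gene, was 124 and 127 in wildtype, 129 and 106 in heterozygotes, and 102 and 84.7 in homozygotes (log2 difference -0.44, adjusted p = 0.252 from limma). At that level Jund exceeded both Jun and Junb in every mouse. Among the 21 genes of the upstream pathway (serum response factor, Elk factors and MAP kinases), Mapk3, Map2k3 and Rps6ka1 were lower in homozygous mice at the unadjusted threshold (14.3% of the list, against 18% of all tested genes) and 0 passed the adjusted one. Mapk3, which encodes ERK1, had 136 and 157 in wildtype, 160 and 128 in heterozygotes, and 78.6 and 109 in homozygotes (log2 difference -0.66, adjusted p = 0.219 from limma).

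Among the 16 tested genes that restrain MAP kinase signaling or Egr activity besides Dusp1, 0 passed the adjusted threshold, and 2 of 16 (12.5%) the unadjusted one in each comparison with wildtype, against 6.87% of all tested genes for heterozygous and 18% for homozygous mice. Dusp4, a nuclear MAP kinase phosphatase, was higher at the unadjusted threshold in both genotypes and followed the number of alleles, with an FPKM of 0.869 and 3.17 in wildtype, 4.14 and 6.12 in heterozygotes, and 8.02 and 8.004 in homozygotes. Its log2 difference from wildtype was 1.53 for heterozygotes and 2.19 for homozygotes (adjusted p = 0.671 and 0.173 from limma). Spry1 was lower in homozygous mice and Nab1, a corepressor of Egr proteins, in heterozygous mice at the unadjusted threshold. With Spry1, which was ordered as falling, 2 of the 16 genes followed the number of alleles, against 8.83% of all tested genes. For the p53 target genes tested in the same fit, the median log2 difference in homozygous mice was -1.96, and Cdkn1a, for one, stood at -4.00 (adjusted p = 0.000750 from limma).

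**Figure D5:**
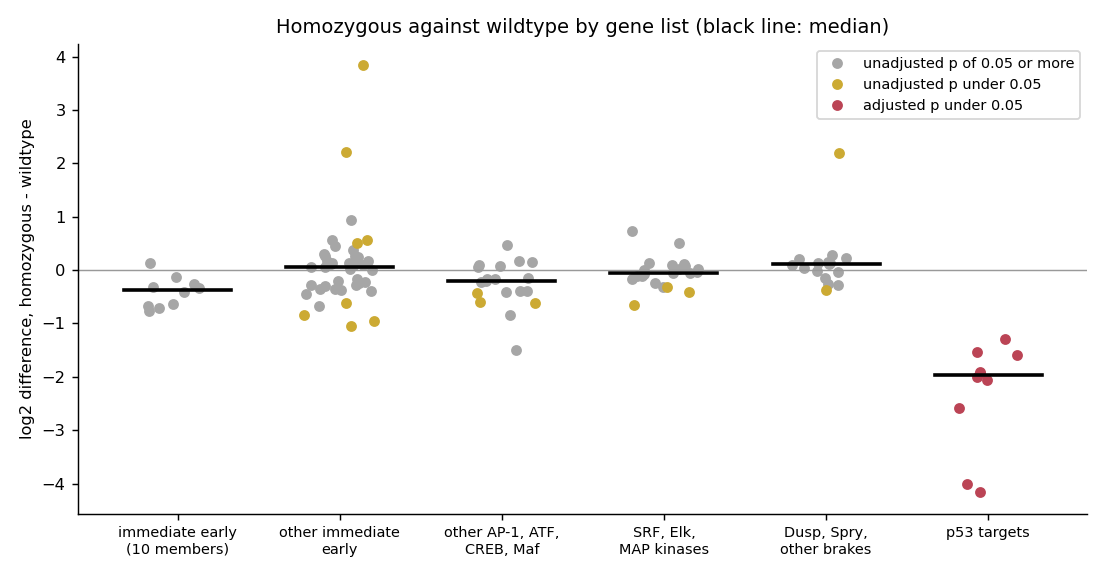
Log2 difference between homozygous and wildtype mice for each tested gene of 6 lists, with the median of each list as a black line and dots colored by limma's p-value. The medians lie at -0.37 for the 10 immediate early genes, 0.06 for the other immediate early genes and -1.96 for the p53 target genes, the only list with genes that passed the adjusted threshold.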

How the data were processed

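Per the labels, prostates were frozen at once and their polyadenylated RNA was sequenced with a stranded kit. The authors aligned read pairs to GRCm38/mm10 with HISAT and deposited gene-level FPKM values made with Cufflinks and Cuffnorm, 1 table for each mouse. Versions, annotation and scaling settings are not given in the sources used here. Fragment counts are not part of the FPKM values, so no count test was used. Genes that averaged 1 FPKM or more were tested as log2(FPKM + 0.1) with limma 3.58.1 in R 4.3.3 (3 genotypes, intensity trend, Benjamini-Hochberg adjustment over 13818 genes, threshold 0.05), after the fit was tested on simulated data. The added 0.1 can shrink fold changes of low genes such as Fosb. Its log2 difference between homozygous and wildtype mice was -0.71, and -0.80 with a pseudocount of 0.01. Between heterozygous and wildtype mice it was -0.46 with either. The labels do not state litters or batches. Fragments behind a value were estimated as FPKM times transcript length over the worth of 1 fragment, and their counting error as 100% over the square root. Other steps used Python 3.11.15. The 10 genes, the lists and the rules were chosen with earlier results of these data known. Named besides the 10 were the 5 nearest profiles and listed genes with an unadjusted p-value under 0.05 against wildtype, in part by name only. Irf1 and Mcl1 did not pass that threshold and were named for their order by allele number. Alternatives were pseudocounts of 1 and 0.01, no filter, an average FPKM of 5 or more, median scaling, quantile normalization, no trend, an F-test without moderation, and leaving out each mouse.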

Additional observations from a re-analysis of the deposited data

How the results depend on the processing

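No paired analysis was possible because the animal numbers differ between all 6 mice. With 2 mice for each genotype, the limma fit leaves 3 residual degrees of freedom, and leaving out a mouse assumes that the lone mouse of that genotype varies like the others. Under all alternatives, 0 of the 10 genes had an adjusted p-value under 0.05, the lowest being 0.145 (9 genes were tested where Fosb missed the filter, at an average FPKM of 5 or more and without mouse 41). With each mouse left out in turn, the number with an unadjusted p-value under 0.05 ran from 0 to 2 in the F-test, 0 to 1 for heterozygous and 0 to 3 for homozygous against wildtype mice and 0 to 2 for homozygous against heterozygous mice, 0 to 1 genes met the criterion modelled on the study's and 0 to 3 were ordered by allele number. The unadjusted counts were above 0 without mouse 39, 41 or 49.

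Counts over all genes depended on the processing. Genes with an adjusted p-value under 0.05 in the F-test numbered 14, and 3 without a filter, 4 with quantile normalization, 9 without a trend, 0 with an unmoderated F-test and 0 to 10 without a mouse (lowest without 37). For homozygous against wildtype they numbered 53, and 4 without a filter, 23 without a trend and 4 (without 37) to 128 (without 49) with a mouse left out. Of the 10 p53 target genes, 2 passed without a filter, 7 with quantile normalization and 4 without a trend. For homozygous against heterozygous they numbered 2, and 1 with a pseudocount of 0.01 or an average FPKM of 5 or more and 0 (without 37) to 54 (without 49) with a mouse left out. For heterozygous against wildtype they numbered 0, and 0 to 2 without a mouse. The criterion modelled on the study's called 1148 genes, 598 with an F-test without moderation (added after seeing the data), 697 at an average FPKM of 5 or more and 809 (without 37) to 1862 (without 49) with a mouse left out. Ordered genes numbered 1220, and 1972 to 2982 without a mouse, where fewer values must follow the order.

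Of 207 differences of single genes of the group under the other settings, 2 changed sign, both with quantile normalization (Ier2 to 0.0079 against wildtype and Fosb to 0.64 against heterozygous, both in homozygous mice). Of 177 with a mouse left out, 24 did, all from differences that had not passed a test. Between heterozygous and wildtype mice the ranges were -1.09 to 0.68 for Fos, -0.18 to 0.12 for Jun, -0.28 to 0.35 for Junb, -0.67 to 0.17 for Egr1, -0.10 to 0.27 for Ier2, -0.15 to 0.22 for Ier3 and -0.0887 to 0.50 for Klf4. Between homozygous and wildtype mice they were -1.56 to 0.21 for Fos, -1.91 to 0.48 for Fosb, -0.31 to 0.0623 for Ier2, -0.57 to 0.0291 for Klf4 and -0.18 to 0.44 for Dusp1. Between homozygous and heterozygous mice they were -1.22 to 0.27 for Fos, -1.44 to 0.94 for Fosb, -1.24 to 0.18 for Egr1 and -0.42 to 0.0297 for Atf3. The cause of these shifts was not tested.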
